A study of Mus musculus with 17 samples.

Results

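The epidermal growth factor (EGF) family was followed here through 9 genes: the ligands Areg, Ereg, Hbegf, Tgfa, Btc, Epgn and Nrg1, and the receptors Egfr and Erbb2. Members were the array probes whose RefSeq transcript belongs to one of these genes. There were 11 such probes among 55681, and all 11 passed the filter on dim probes, so that all 9 genes were among the 21380 genes tested. The samples were forestomachs of adult male MutaTMMouse, a transgenic strain built for scoring mutations, aged 24 to 26 weeks. All animals were gavaged daily for 28 days and killed 72 hours after the final gavage. The control group received olive oil alone (n = 5, replicates 1 to 5), and the treated groups received benzo(a)pyrene in olive oil at 25 mg/kg per day (n = 4, replicates 6 to 9), 50 mg/kg per day (n = 4, replicates 12 to 15) or 75 mg/kg per day (n = 4, replicates 17 to 20). The forestomach RNA of 1 animal was in the Cy5 channel of each array, and a reference RNA pooled from 11 mouse cell lines was in the Cy3 channel of every array, with no dye swap.

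Ligands of the EGF family are made as membrane-anchored precursors, and metalloproteases such as ADAM17 release their active domain. Amphiregulin, epiregulin, heparin-binding EGF, transforming growth factor alpha, betacellulin and epigen bind the EGF receptor, whereas neuregulin 1 binds ERBB3 and ERBB4. ERBB2 has no known ligand of its own and signals by pairing with the other receptors of the family. In stratified squamous epithelia, such as the lining of the forestomach, this pathway promotes proliferation and migration of keratinocytes and takes part in wound repair. Benzo(a)pyrene is a polycyclic aromatic hydrocarbon that activates the aryl hydrocarbon receptor.

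All values are log2 ratios of Cy5 over Cy3, so that each unit is a doubling, and the zero is set by the reference RNA and differs from probe to probe. The share of probes well above background in Cy5 was 39.9% to 50.7% per array. All 12 markers of stratified squamous epithelium were well above background on every array, and their mean log2 ratio was 4.40 to 5.09 at 75 mg/kg and 4.48 to 4.87 in control. Of the 8 glandular stomach markers, 7 were tested, and 1 of these was well above background on every array. They stood apart on the array of replicate 7 at 25 mg/kg, with a mean log2 ratio of 5.77. This mean was 0.63 to 2.73 on the other arrays of that dose, 0.22 to 1.87 in control and 0.55 to 3.11 at 75 mg/kg. The member counts at 25 mg/kg, and the values of Epgn, Areg and Nrg1 at that dose, are therefore also given without replicate 7. The tissue was analysed whole, so fewer cells of a type and less RNA per cell cannot be told apart. The arrays lay on 3 slides, each of which held all 4 groups.

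None of the 9 genes passed the test at any dose in the fit of the 4 group means, and Epgn passed at 75 mg/kg (adjusted p = 0.0305) and on the line (adjusted p = 0.0148) when slide was a fixed block. In the fit without slide, with limma and Benjamini-Hochberg adjustment over all genes, the count of members with an adjusted p under 0.05 was 0 at 25, 50 and 75 mg/kg, 0 for 75 against 25 mg/kg, and 0 for a straight line on dose. Among all genes tested, the same threshold was passed by 0.014% at 25 mg/kg, 0.0468% at 50 mg/kg, 1.1% at 75 mg/kg, 0.0608% for 75 against 25 mg/kg and 1.35% on the line. At an unadjusted p under 0.05 the members numbered 0 at 25 mg/kg, 1 at 50 mg/kg (Epgn), 3 at 75 mg/kg (Epgn, Erbb2 and Ereg) and 0 for 75 against 25 mg/kg, and 3 on the line. The shares of all genes at that unadjusted threshold were 3.26%, 6.81%, 10.1%, 4.74% and 11.4%. The 3 members at 75 mg/kg were all higher than control, as were 5.69% of all genes, and 4.38% were lower. In no dose group did a member's arrays lie entirely apart from control, which held for 0.987% of all genes at 25 mg/kg, 2.21% at 50 mg/kg and 3.3% at 75 mg/kg. The 3 dose comparisons share the same control arrays.

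At 75 mg/kg, 8 of the 9 members had a positive difference from control, whereas 48% of all genes did. The median difference of the members was 0.21, and that of all genes was -0.01. At 25 mg/kg the median difference was 0.21 for the members and 0.01 for all genes, with 7 members and 52.3% of all genes positive. Without replicate 7 all 9 members were positive at that dose, as were 50.8% of all genes, with a median of 0.21 for the members and none passing (limma), and 1 member, against 4.61% of all genes, had an unadjusted p under 0.05. At 50 mg/kg it was 0.08 for the members and -0.01 for all genes, with 7 members and 47.9% of all genes positive. Nrg1 had a negative difference at all 3 doses, but turned positive at 25 mg/kg without replicate 7 (0.023) and with slide as a fixed (0.027) or random (0.0053) block, and at all 3 doses with median centring in place of loess (0.21, 0.080 and 0.013).

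**Figure D1:**
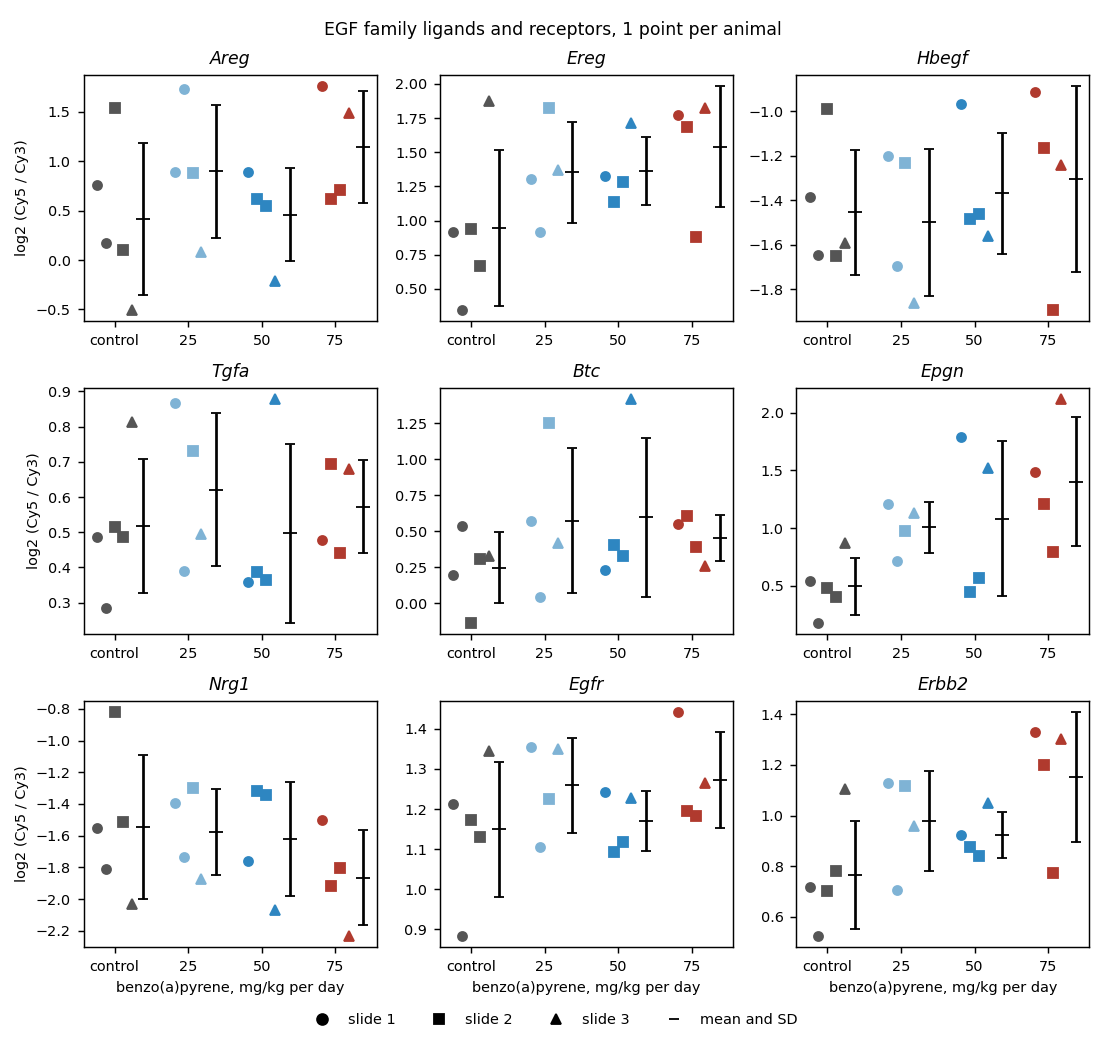
Log2 ratio of Cy5 over Cy3 for the 9 members by dose of benzo(a)pyrene, 1 point per animal with its shape giving the slide, and the mean and SD of each group beside the points. The control and 75 mg/kg points overlap in every panel, and Epgn shows the largest separation of means (1.40 at 75 mg/kg against 0.49 in control).

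Epgn, which encodes epigen, a ligand of the EGF receptor made in epithelia, had the largest difference. Its log2 ratios were 0.54, 0.18, 0.48, 0.40 and 0.87 in the 5 control animals. They were 1.21, 0.71, 0.97 and 1.13 at 25 mg/kg, 1.79, 0.45, 0.57 and 1.52 at 50 mg/kg, and 1.49, 1.21, 0.79 and 2.12 at 75 mg/kg. At 75 mg/kg the lowest animal, replicate 19, lay below the highest control animal, replicate 5, and the other 3 lay above all controls. The group means followed the order of the doses, from 0.49 ± 0.25 in control through 1.01 ± 0.22 at 25 mg/kg and 1.08 ± 0.67 at 50 mg/kg to 1.40 ± 0.56 at 75 mg/kg (SD). The neighbouring means in this order differed by less than their larger SD, except 25 mg/kg against control. At 50 mg/kg the 4 animals formed a high and a low pair, with replicates 12 and 15 above every control and replicates 13 and 14 within the control range.

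The fitted difference of Epgn at 75 mg/kg was 0.91 ± 0.28 (SE, 95% interval 0.33 to 1.49), which is 1.88-fold, and its adjusted p in limma was 0.181. The differences at the lower doses were 0.51 ± 0.28 at 25 mg/kg and 0.59 ± 0.28 at 50 mg/kg, with adjusted p of 0.999 and 0.731. Without replicate 7 the difference at 25 mg/kg was 0.61. The slope on dose was 0.29 ± 0.08 per 25 mg/kg, with an adjusted p of 0.123. It passed with slide as a fixed block (0.30, adjusted p = 0.0148), with slide as a random block (0.30, adjusted p = 0.0297) and from the Cy5 channel alone (0.34, adjusted p = 0.00639). With slide as a fixed block the difference at 75 mg/kg was 0.93 and passed (adjusted p = 0.0305), and with slide as a random block it was 0.93 (adjusted p = 0.0502). From the Cy5 channel alone it was 1.04 and passed (adjusted p = 0.0213). Within the slides the 75 mg/kg mean exceeded the control mean by 1.13, 0.56 and 1.25. Without replicate 20 at 75 mg/kg, the highest animal, the difference was 0.67, and without replicate 19 it was 1.11. The Epgn probe had 1 spot per array and was also dim. Its Cy5 signals were 93.5 to 397.5 over a background of 65 to 77, and its Cy3 signals were 66.5 to 109. It was well above background in both channels on all 17 arrays. With Agilent's processed signals the limma difference at 75 mg/kg was 1.11 ± 0.50 (adjusted p = 0.498).

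Epgn, Ereg, Areg and Btc are consecutive protein-coding genes on mouse chromosome 5. The 250 bases before the start of Epgn, Areg and Btc are shown because these genes lie in this cluster. A further reason is that the aryl hydrocarbon receptor, which benzo(a)pyrene activates, recognises the core GCGTG. The values of these genes were not tested against each other, and the part of any motif in them was not tested. The sequences are from RefSeq on build GRCm38.p6, and read 5′ to 3′ on the strand of the gene. They are Epgn chr5:91027267-91027516 on the plus strand, Areg chr5:91139349-91139598 on the plus strand and Btc chr5:91402995-91403244 on the minus strand. Capitals mark a match on either strand to GCGTG or to TGACGTCA, the cAMP response element.
Epgn: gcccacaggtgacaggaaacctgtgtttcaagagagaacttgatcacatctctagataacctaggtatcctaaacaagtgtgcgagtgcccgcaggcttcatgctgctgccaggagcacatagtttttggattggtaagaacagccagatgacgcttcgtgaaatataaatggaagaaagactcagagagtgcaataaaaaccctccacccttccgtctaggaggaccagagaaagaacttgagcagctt
Areg: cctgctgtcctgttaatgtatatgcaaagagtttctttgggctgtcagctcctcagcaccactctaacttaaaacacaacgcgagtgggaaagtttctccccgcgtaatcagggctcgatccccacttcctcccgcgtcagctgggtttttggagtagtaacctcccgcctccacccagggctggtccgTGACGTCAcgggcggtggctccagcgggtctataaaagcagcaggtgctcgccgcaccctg
Btc: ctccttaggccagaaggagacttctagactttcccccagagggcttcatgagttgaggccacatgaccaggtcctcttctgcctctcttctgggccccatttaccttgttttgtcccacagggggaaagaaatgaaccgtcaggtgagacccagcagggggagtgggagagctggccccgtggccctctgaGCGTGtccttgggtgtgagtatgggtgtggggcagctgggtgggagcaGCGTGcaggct
Btc held GCGTG at 59 and at 11 bases before its start, and Areg held TGACGTCA at 61 bases before its start. The Epgn window held neither of these motifs, nor TGANTCA, the AP-1 site. Of the members, 6 were in the promoter table used. GCGTG was in 2 of these 6, Btc and Tgfa, and in 28.2% of 32851 promoter windows of the same length. TGACGTCA was in 1 of 6 and in 1.55% of all windows, and TGANTCA was in 0 of 6 and in 6.75% of all windows. The 3 motifs were searched on both strands, and no match overlapped another in the members.

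Areg, which encodes amphiregulin, a keratinocyte growth factor, varied widely within every group. Its log2 ratios were 0.76, 0.17, 1.54, 0.10 and -0.51 in control and 0.89, 1.73, 0.88 and 0.09 at 25 mg/kg. At 50 mg/kg they were 0.89, 0.61, 0.55 and -0.21, and at 75 mg/kg they were 1.76, 0.62, 0.71 and 1.49. The ranges of all 4 groups overlapped, and the 50 mg/kg mean was close to that of control. The difference at 75 mg/kg was 0.73 ± 0.39 (95% interval -0.08 to 1.55, adjusted p = 0.556), and it was 0.50 without control replicate 5 and 1.01 without control replicate 3. Within the slides this difference was 1.30, -0.16 and 1.99. At 25 mg/kg the difference was 0.48 ± 0.39. The highest animal of that dose was replicate 7, the one with high glandular stomach markers, and without it the difference was 0.21. The part of those markers in the Areg value was not tested.

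Ereg, which encodes epiregulin, had log2 ratios of 0.92, 0.35, 0.94, 0.67 and 1.87 in control, 1.30, 0.92, 1.82 and 1.37 at 25 mg/kg, and 1.33, 1.13, 1.28 and 1.72 at 50 mg/kg. At 75 mg/kg they were 1.77, 1.69, 0.88 and 1.83. Control replicate 5 was higher than every treated animal, and replicate 19 at 75 mg/kg was lower than 3 of the controls. The difference at 75 mg/kg was 0.59 ± 0.27 (1.51-fold, 95% interval 0.03 to 1.16), with an adjusted p of 0.459. Leaving out control replicate 5 gave 0.83 (adjusted p = 0.0871), and leaving out replicate 19 gave 0.81 (adjusted p = 0.211). Slide 3, which held control replicate 5, had the highest mean Ereg ratio (1.70, against 1.10 and 1.20 on the other slides). The within-slide differences at 75 mg/kg were 1.14, 0.48 and -0.05.

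The other ligands showed smaller differences. Hbegf, which encodes a ligand of the EGF receptor and of ERBB4, averaged -1.30 ± 0.42 at 75 mg/kg (SD, n = 4) and -1.45 ± 0.28 in control (SD, n = 5), a difference of 0.15 ± 0.20 (SE). For Tgfa, which encodes transforming growth factor alpha, the means were 0.57 ± 0.13 at 75 mg/kg and 0.52 ± 0.19 in control, and the difference was 0.06 ± 0.13 (95% interval -0.23 to 0.34). Btc, which encodes betacellulin, averaged 0.45 ± 0.16 at 75 mg/kg and 0.25 ± 0.25 in control, with a difference of 0.21 ± 0.24 (95% interval -0.30 to 0.71). Their adjusted p at 75 mg/kg ranged upward from 0.834 for Btc to 0.932 for Tgfa. Tgfa and Btc were dim: median Cy5 signals were 85.5 to 132.5 for Tgfa and 73 to 212 for Btc, over a background of 63.5 to 77. In Cy5, Tgfa was well above background on 15 arrays and Btc on 16 of the 17. In the reference channel, Cy3, Tgfa was well above background on 8 of the 17 arrays, so its ratios rest on a denominator near background on the others.

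Nrg1, which encodes neuregulin 1, was the one member with a negative difference at 75 mg/kg. Its log2 ratios were -1.55, -1.81, -0.82, -1.51 and -2.03 in control, -1.39, -1.73, -1.30 and -1.87 at 25 mg/kg, -1.76, -1.32, -1.34 and -2.07 at 50 mg/kg, and -1.50, -1.92, -1.80 and -2.23 at 75 mg/kg. Control replicate 3 lay above all other animals, and the remaining values of the groups overlapped. The difference at 75 mg/kg was -0.32 ± 0.22 (95% interval -0.79 to 0.15, adjusted p = 0.694). It was -0.14 without control replicate 3, and 0.01 when arrays were centred on their median in place of loess. That centring moved the median difference of all genes to 0.19, so Nrg1 still lay below the median gene.

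**Figure D2:**
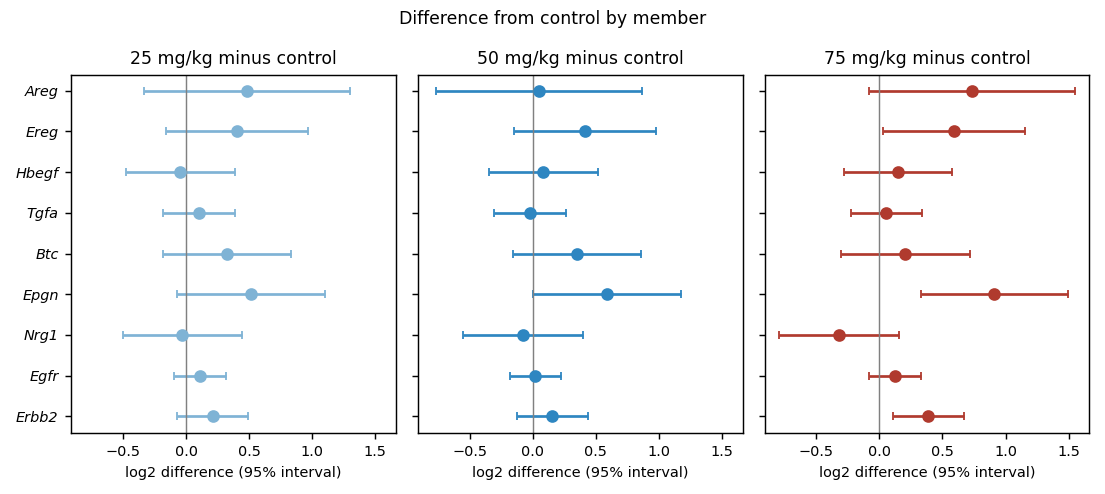
Log2 difference from control for each member at 25, 50 and 75 mg/kg, with the 95% interval from limma, based on 4 treated and 5 control arrays. At 75 mg/kg the intervals of Epgn, Erbb2 and Ereg lie above zero before adjustment for the 21380 genes tested, and no member has an adjusted p under 0.05.

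Among the receptors, Erbb2 had log2 ratios of 0.72, 0.52, 0.70, 0.78 and 1.11 in control, and 1.13, 0.71, 1.12 and 0.96 at 25 mg/kg. At 50 mg/kg they were 0.92, 0.87, 0.84 and 1.05, and at 75 mg/kg 1.33, 1.20, 0.77 and 1.30. At 75 mg/kg 3 animals lay above all controls, and replicate 19 lay within the control range. The means were 1.15 ± 0.26 at 75 mg/kg and 0.77 ± 0.21 in control (SD), and the difference was 0.39 ± 0.13 (SE), or 1.31-fold, with a 95% interval of 0.10 to 0.67 and an adjusted p of 0.273. Within the slides it was 0.71, 0.25 and 0.20. It did not pass under any alternative, with adjusted p from 0.0687 (without replicate 19) to 0.532 (without replicate 17). The probe had 10 spots per array, whose median SD of 0.09 was below the SD between animals of a group, 0.20.

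The 250 bases before the start of Erbb2 are shown for comparison with the ligands above. They lie at chr11:98412234-98412483 on the plus strand (RefSeq, GRCm38.p6) and held none of the 3 motifs, so the sequence has no capitals.
Erbb2: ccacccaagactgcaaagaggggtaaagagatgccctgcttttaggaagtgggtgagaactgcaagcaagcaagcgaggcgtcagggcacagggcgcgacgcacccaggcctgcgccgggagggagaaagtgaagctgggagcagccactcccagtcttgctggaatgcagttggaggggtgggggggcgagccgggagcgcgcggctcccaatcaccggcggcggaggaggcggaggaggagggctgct

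Egfr, which encodes the receptor that binds most of these ligands, was measured by 3 probes. The brightest probe, also with 10 spots, gave a mean of 1.27 ± 0.12 at 75 mg/kg (SD, n = 4) and 1.15 ± 0.17 in control (SD, n = 5). Its difference at 75 mg/kg was 0.12 ± 0.10 (SE, 95% interval -0.08 to 0.33, adjusted p = 0.739), the narrowest interval among the members. The other probes, which match a different RefSeq transcript of the gene, had differences of the opposite sign, -0.10 ± 0.16 and -0.04 ± 0.21, with adjusted p of 0.907 and 0.973 over all 27570 probes. All 3 intervals included zero.

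**Figure D3:**
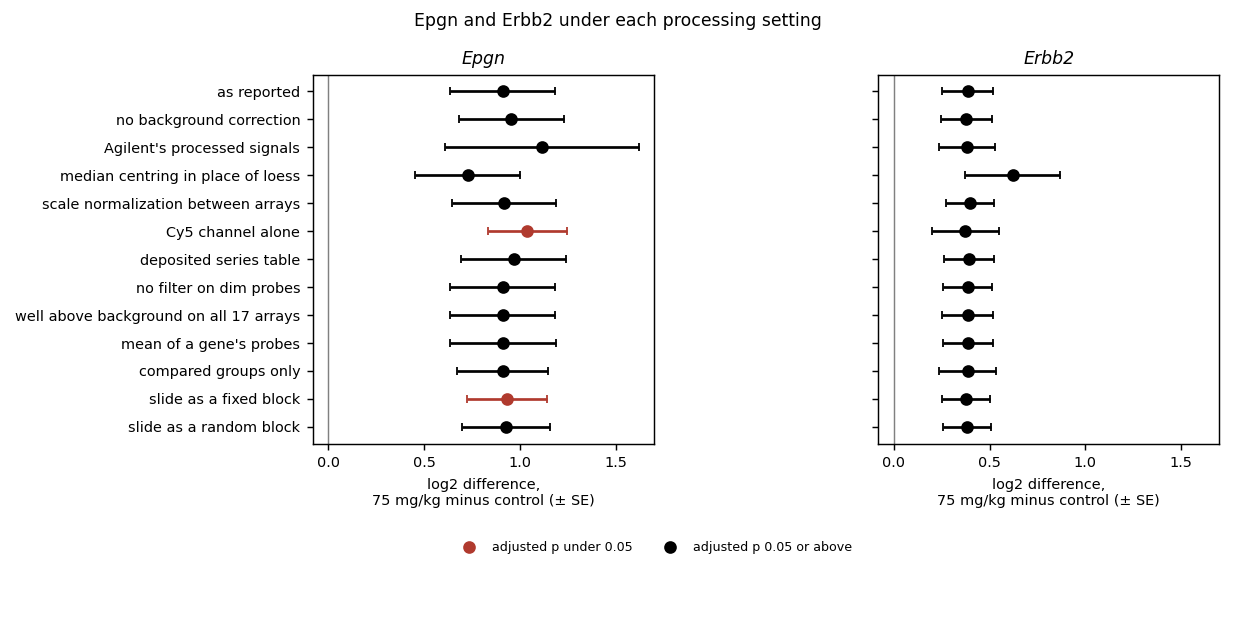
Log2 difference of Epgn and Erbb2 at 75 mg/kg minus control under each processing setting, with the SE. Epgn lies between 0.73 and 1.11 and passes the adjusted threshold from the Cy5 channel alone and with slide as a fixed block (red), and Erbb2 lies between 0.37 and 0.62 and passes under none.

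Several members varied together across the 17 arrays. Pearson's r was computed across the 17 arrays for all 36 pairs of members, with permutation p-values (100000 permutations, two-sided) adjusted over the 36. The permutations ran without regard to dose group or slide, so these p-values also count shifts shared by a dose or a slide. Ereg and Erbb2 had the highest r, 0.914, with an adjusted permutation p of 0.00036 from a raw p of 1e-05, the smallest the permutations can give. Spearman's rho was 0.853 (adjusted permutation p = 0.00288). Leaving out the 2 arrays farthest from the median of Ereg gave r = 0.899, and removing group and slide means gave 0.892. Within slide 1 r was 0.951 (n = 6) and within slide 2 it was 0.906 (n = 7), and slide 3 held too few arrays (n = 4). Control replicate 2 was the lowest animal for both genes. Control replicate 5 was the highest for Ereg (1.87), whereas for Erbb2 (1.11) it lay below replicates 6 and 8 at 25 mg/kg and replicates 17, 18 and 20 at 75 mg/kg.

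Epgn and Erbb2 also varied together, with r = 0.781 and rho = 0.787 (adjusted permutation p = 0.00384 and 0.00526). This r was 0.855 without the 2 arrays farthest from the median of Epgn, 0.597 with group and slide means removed, 0.788 within slide 1 and 0.855 within slide 2. In all, 8 of the 36 pairs (22.2%) had an adjusted permutation p under 0.05 for r, and all 8 were positive pairs among Ereg, Epgn, Tgfa, Egfr and Erbb2. By rho 6 of them did, without Tgfa and Ereg (adjusted permutation p = 0.0718) and Tgfa and Erbb2 (0.0818). With group and slide means removed, r of the 8 pairs ran from 0.486 (Epgn with Egfr) to 0.892 (Ereg with Erbb2). Without that removal the lowest r of the 8 was 0.641, and 2.26% of all pairs among 21341 genes reached that value. The r of Ereg with Erbb2 was reached by 0.0188% of all pairs, and that of Epgn with Erbb2 by 0.406%. Without replicate 7 at 25 mg/kg, r was 0.91 for Ereg with Erbb2 and 0.782 for Epgn with Erbb2. The points of a pair share an animal, an array and its loess curve. With Agilent's processed signals r was 0.885 for Ereg with Erbb2, and from the Cy5 channel alone it was 0.814.

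**Figure D4:**
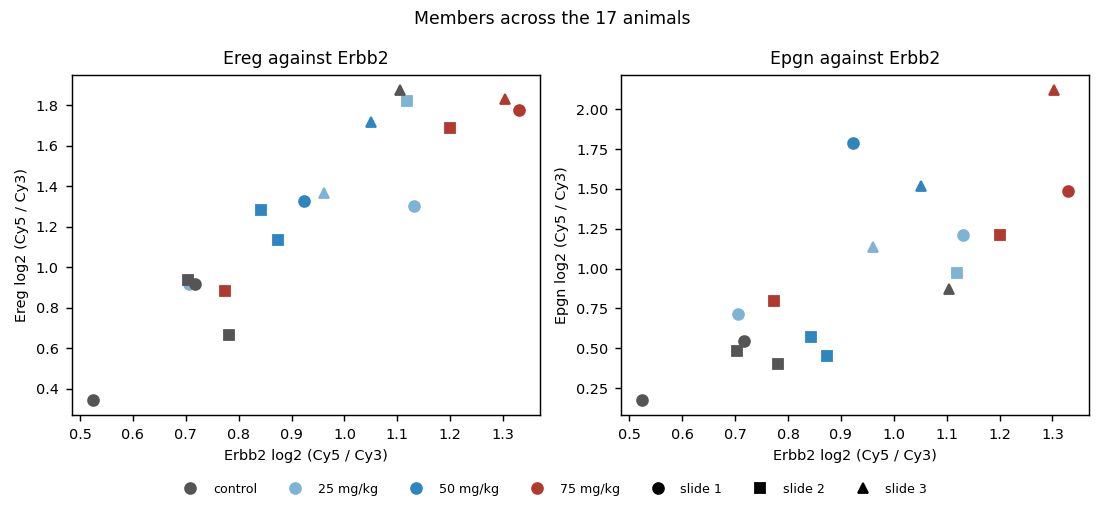
Log2 ratios of Ereg (left) and Epgn (right) against Erbb2 across the 17 animals, coloured by dose and shaped by slide. Ereg and Erbb2 vary together (r = 0.914), with the 3 highest 75 mg/kg animals at higher Erbb2 than the other animals of like Ereg, and for Epgn the spread is wider (r = 0.781).

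Epgn also moved with the stress keratins Krt6a, Krt6b, Krt16 and Krt17, which squamous epithelia express in wounds and thickened epithelium. The mean log2 ratio of these 4 genes was 3.02 to 5.08 at 75 mg/kg and 1.03 to 2.91 in control. Of these genes, 2 were well above background on every array. Krt16 was the one of the 4 that passed at 75 mg/kg (difference 3.62 ± 0.57, adjusted p = 0.00428). Across the 17 arrays, r between Epgn and the mean of the 4 keratins was 0.87 and rho was 0.789, with adjusted permutation p of 0.00036 and 0.0122 over 36 relations between the 9 members and 4 marker lists. The 4 lists, out of 10, were picked after the data had been seen, and the adjustment does not cover that choice. These permutations too ran without regard to dose group or slide. The r of Epgn with the keratins was 0.787 without the 2 arrays farthest from the keratin median and 0.751 with group and slide means removed. Within slide 1 it was 0.919 and within slide 2 it was 0.807. It was 0.883 without replicate 7 at 25 mg/kg. Over all 17 arrays, the remaining relations each had an adjusted permutation p of 0.0723 or above for r. Among them were Erbb2 with the stress keratins (r = 0.632) and Btc with smooth muscle markers (r = -0.622). With the glandular stomach markers r was 0.213 for Erbb2, 0.315 for Epgn and 0.232 for Ereg, and without replicate 7 at 25 mg/kg it was 0.676 for Erbb2, 0.645 for Epgn and 0.622 for Ereg. With group and slide means removed, all 17 arrays included, these were -0.254, -0.341 and -0.163. That removal was not run without replicate 7, so these values are not comparable with the r without that array.

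None of the other marker lists had a gene that passed at 75 mg/kg, and several had medians as far from zero as those of the members. The glandular stomach markers had a median difference of 0.98, with 6 of 7 positive, and a mean log2 ratio of 0.55 to 3.11 at 75 mg/kg against 0.22 to 1.87 in control. At that dose replicates 17 (2.92) and 20 (3.11) lay above every control, and replicates 18 (1.13) and 19 (0.55) did not. Replicate 19 was also the lowest animal of that dose for Epgn, Ereg and Erbb2. It was the lowest as well for the squamous markers (4.40) and the stress keratins (3.02), but for none of the remaining lists. Control replicate 5 (1.87) was the highest control for the glandular stomach markers and for Epgn, Ereg and Erbb2. For the squamous markers control replicates 5 and 1 were highest (both 4.87), and for the mast cell markers control replicate 5 was (2.68). The adipocyte markers had a median of -0.84, with 4 of 5 negative, and a mean log2 ratio of 1.13 to 3.04 at 75 mg/kg against 1.23 to 4.07 in control. Of the 5 adipocyte markers, 1 was well above background on every array. All 7 smooth muscle markers were negative, with a median of -0.46, as were all 6 markers of nerve and glia, with a median of -0.20. The medians were 0.24 for mast cells, 0.19 for fibroblasts, 0.08 for cell cycle genes, -0.05 for the 12 squamous markers and -0.14 for leukocytes. The part of these cell types in the values of the members was not tested.

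The genes whose log2 ratios were most like those of Epgn over the 17 arrays, among 13850 other genes with a symbol, were Mocos (r = 0.94), Atpaf2 (r = 0.94) and Cstdc5 (r = 0.93). With group means removed r was 0.91 for Mocos, 0.91 for Atpaf2 and 0.93 for Cstdc5. Their differences at 75 mg/kg were 0.43, 0.32 and 0.86, and none passed (adjusted p = 0.369, 0.347 and 0.369).

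Genes around the members in the pathway were followed in 5 lists, and none of their tested genes passed in any comparison, against 1.1% of all genes at 75 mg/kg. For the list counts below at an unadjusted p under 0.05, the shares of all genes at 75 mg/kg were 5.69% higher and 4.38% lower. Of the other ligands and receptors of the family, 3 of 6 were tested, and Nrg3, Erbb3 and Erbb4 were too dim to be tested. The median difference of the 3 at 75 mg/kg was 0.16. Egf, the founding ligand, had a difference of 0.20 ± 0.12 and Nrg2, a neuregulin, 0.16 ± 0.15. Egf was dim, and was well above background in Cy5 on 2 of the 5 control arrays and on all 4 at 75 mg/kg.

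Of the proteases and regulators that shed or traffic the ligands, 10 of 10 were tested, with a median difference of 0.06 and none at an unadjusted p under 0.05. Timp3, which encodes an inhibitor of ADAM17, had a difference of -0.37 ± 0.18 (adjusted p = 0.520), and Rhbdl2, which encodes a rhomboid protease that can cleave EGF family ligands, 0.32 ± 0.16 (adjusted p = 0.527). Of the adaptors and kinases next to the receptor, 13 of 16 were tested, with a median of -0.02 and unadjusted p under 0.05 in 2 higher genes and 1 lower gene. The higher genes were Gab1 and Pik3r1.

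Gab1, which encodes a docking protein that links the EGF receptor to the PI3 kinase pathway, had log2 ratios of 0.25, 0.13, 0.29, 0.32 and 0.74 in control, and 0.56, 0.81, 0.75 and 1.02 at 75 mg/kg. Control replicate 5 again lay within the treated range, and the other 4 controls lay below it. The difference of Gab1 was 0.44 ± 0.12 with an adjusted p of 0.099, the smallest in the 5 lists. It passed with slide as a fixed block (0.42, adjusted p = 0.0334), with slide as a random block (0.43, adjusted p = 0.0365) and without control replicate 5 (0.54, adjusted p = 0.0127). Pik3r1, a regulatory subunit of PI3 kinase, had a difference of 0.39 ± 0.13 (adjusted p = 0.235).

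Of the feedback inhibitors of the receptor, 16 of 18 were tested, with a median of 0.01 and unadjusted p under 0.05 in 2 lower genes. These were Lrig1, which encodes a membrane protein that restrains EGF receptor signalling, with -0.47 ± 0.16 (adjusted p = 0.273), and Socs3, which encodes a suppressor of cytokine signalling, with -0.33 ± 0.15 (adjusted p = 0.487). Of the transcripts known to be induced by EGF receptor activation, 14 of 16 were tested, with a median of 0.03, and 3 higher genes and 1 lower gene at an unadjusted p under 0.05. Phlda1 had a difference of 0.50 ± 0.17 (adjusted p = 0.270) and Myc 0.30 ± 0.11 (adjusted p = 0.288). The third higher gene was Ccnd1, which encodes cyclin D1 (0.25 ± 0.11, adjusted p = 0.448), also outside the naming rule. The lower gene was Egr1, an immediate early transcription factor named after its values were seen, with a difference of -0.64 ± 0.24 at 75 mg/kg (adjusted p = 0.337), -0.75 at 50 mg/kg and -0.56 at 25 mg/kg.

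**Figure D5:**
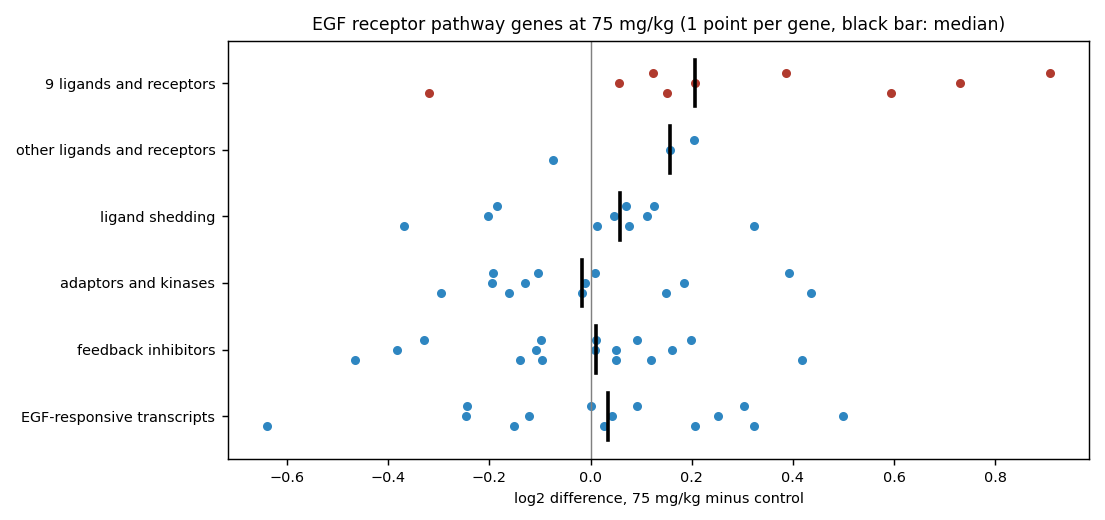
Log2 difference at 75 mg/kg minus control for the 9 members (red) and the tested genes of the 5 other lists (blue), 1 point per gene, with the median of each list as a black bar. The medians run from -0.02 for adaptors and kinases to 0.21 for the members, and no point passes the adjusted threshold.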

How the data were processed

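The authors deposited spot intensity values for each array, which per the file headers came from Feature Extraction 10.7.3.1, and a series table of log2 values. How that table was scaled is not given in the sources used here; its columns followed loess log2 ratios without background correction (r of 0.998 to 0.999), and it served only as an alternative. Here median intensities were background-corrected (normexp, offset 50) and normalized by loess. Control spots had no weight in the loess fit and were then left out. Outlier-flagged spots stayed in the loess fit and were left out when the spots of a probe were averaged. A probe was kept if 4 or more arrays had it well above background in Cy5. For a probe with several spots this meant more than 50% of them, a rule chosen after a first fit. The brightest probe stood for each gene. Differences were tested with limma 3.58.1 in R 4.3.3 (all 17 arrays, 4 group means, two-sided, Benjamini-Hochberg over 21380 genes, threshold 0.05), after a test on simulated data. Dose entered the line in steps of 25 mg/kg. No table column lacked a sample. The design text calls the animals biological replicates.

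The members and lists were chosen with earlier results of these data known. The named genes are all members, the 2 genes of each other list with the smallest p at 75 mg/kg, and the 3 genes most like the member with the smallest p. The relations across arrays were added after the data had been seen. The alternatives were 12 other settings and leaving out each of the 17 arrays. The values of 1 gene of the adaptor and kinase list are not reported here.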

Additional observations from a re-analysis of the deposited data

Results flagged for a closer look

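Single animals lay far from the rest of their group, by Dixon's gap test, in 5 of 44 probe-by-group checks, and chance gives about 1 in 20. At 75 mg/kg, replicate 19 had an Ereg log2 ratio of 0.88, against 1.69 to 1.83 in the other 3 animals. At 50 mg/kg, replicate 15 was high in 2 ligands, with 0.88 for Tgfa and 1.42 for Btc, where the other animals of the dose reached 0.39 and 0.41. Also at 50 mg/kg, replicate 12 had an Hbegf ratio of -0.97, above the others of its group. The less bright Egfr probe A_55_P1956862 read 0.6 in replicate 20 at 75 mg/kg, against 0.30 to 0.33 in the others.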

How the results depend on the processing

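No member passed at 25 or 50 mg/kg, or for 75 against 25 mg/kg, under any setting run. Epgn passed at 75 mg/kg from the Cy5 channel alone (1.04) and with slide as a fixed block (0.93), and on the line under those settings (0.34 and 0.30) and with slide as a random block (0.30). Its difference at 75 mg/kg ranged from 0.67 to 1.11 with each array left out, and it did not pass in any of these fits.

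The number of genes passing at 75 mg/kg, 236, became 145 with median centring (142 higher and 3 lower, against 191 and 45), 155 with the compared groups only, 424 with a fixed and 383 with a random slide block. The other counts moved as follows. The line, 288, became 172 with median centring, 549 with the fixed and 488 with the random slide block. At 50 mg/kg, 10 became 1 with median centring, 16 with scale normalization, 3 from Cy5 alone, 6 with no filter, 6 with the mean of probes, 28 with the fixed and 21 with the random block. At 25 mg/kg, 3 became 0 with median centring, and 1 with processed signals, Cy5 alone, no filter or the fixed block. For 75 against 25 mg/kg, 13 became 0 with processed signals, median centring or the compared groups only, and 32 with either slide block. With each array left out the counts were 0 to 2 at 25 mg/kg, 2 to 32 at 50 mg/kg, 119 to 289 at 75 mg/kg, 0 to 37 for 75 against 25 mg/kg, and 192 to 403 on the line. The count at 75 mg/kg was lower by 1.5 times or more without control replicate 1 (143), 3 (157) or 4 (129), or without 75 mg/kg replicate 17 (119), 18 (122) or 20 (130).

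Small differences changed sign. Median centring gave -0.0004 for Areg at 50 mg/kg, 0.16 for Hbegf at 25 mg/kg, 0.21, 0.080 and 0.013 for Nrg1 at 25, 50 and 75 mg/kg, and 0.045 for Socs3 and 0.024 for Timp3 at 75 mg/kg. Processed signals gave -0.0058 for Egfr and 0.081 for Tgfa at 50 mg/kg, and the series values gave 0.0053 for Tgfa. The mean of probes gave Egfr -0.0039 at 75 mg/kg and -0.16 for 75 against 25 mg/kg. Cy5 alone gave 0.027 for Hbegf at 25 mg/kg. The slide blocks gave 0.027 (fixed) and 0.0053 (random) for Nrg1 at 25 mg/kg. With each array left out, the range crossed zero at 25 mg/kg for Hbegf (-0.14 to 0.077) and Nrg1 (-0.15 to 0.15), and at 50 mg/kg for Areg (-0.18 to 0.33), Egfr (-0.045 to 0.071), Hbegf (-0.049 to 0.20), Nrg1 (-0.20 to 0.11) and Tgfa (-0.15 to 0.054). It also did so for Tgfa at 75 mg/kg (-0.0027 to 0.13) and on the line (-0.013 to 0.027), and for 75 against 25 mg/kg for Areg (-0.022 to 0.53), Btc (-0.30 to 0.10), Egfr (-0.044 to 0.045) and Tgfa (-0.12 to 0.034). The cause of these changes was not tested.

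No paired analysis was possible because the groups share no replicate numbers. Each slide held all 4 groups, and slide was a block only in the fixed and random block settings, not in the main fit. Tgfa and Btc have no value where probes must be well above background on all 17 arrays because their signals were dim. Groups of 4 and 5 animals limit the precision of every difference.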
